A study of Mus musculus with 2 samples.

Results

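The transcripts described here belong to 45 interferon-stimulated genes, of which 44 had a row among the 31053 genes counted in mouse periodontal tissue. A gene was a member when its symbol was on the list and matched a row. The match used no measured value, but the list was written with earlier results of these data known. *Mx2* was not analysed here. Raw transcript counts of the 44 genes were read in every cell, summed over cell types defined by marker genes, and compared between tissue with ligature-induced periodontitis (LIP), in which a thread tied around a molar lets bacteria accumulate, and untreated tissue. The mice of both groups were wild-type C57BL/6 animals of 8 weeks, and the LIP tissue was taken 7 days after the ligature was placed. Each group was 1 library made from the pooled tissue of 5 mice, digested from the gingiva and the surface of the alveolar bone, and no label ties a cell to a mouse. With 1 library per condition there was no replicate and no test, and the animals, the digestion and the ligature cannot be told apart as sources of a difference. Every interval below is an exact 95% interval that covers counting error only. A count of 0 was given a fixed floor of 3 counts in place of an exact limit.

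Interferons are secreted proteins that warn cells of infection. Type I interferons (IFN-α and IFN-β) signal through the IFNAR receptor to ISGF3, a complex that includes STAT2 and IRF9 and binds the interferon-stimulated response element (ISRE). Type II interferon (IFN-γ), made mainly by T cells and natural killer cells, signals through the IFNGR receptor, acts on genes through the gamma-activated site (GAS) and induces IRF1. The induced genes encode antiviral proteins such as ISG15 and the IFIT family, GTPases that attack vacuoles holding microbes, and the chemokines CXCL9 and CXCL10, which attract T cells that carry CXCR3.

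Both DNA elements could be looked for in the promoters of the listed genes. RefSeq promoters (GRCm38.p6) were matched for 35 of the 45 symbols, and the 250 bases before the transcription start were searched on both strands for the core of an ISRE, which is a pair of GAAA words with 2 bases of any kind between them (or TTTC words on the other strand), and for TTCNNNGAA, the core of a GAS. An ISRE-type match was present in at least 1 promoter of 19 of the 35 genes (54.3%), against 2.98% of all 32851 promoters counted singly. A GAS-type match was present for 7 of the 35 genes (20%) against 7.02% of promoters. The listed share is per gene and the other per promoter, so a listed gene with several promoters had more occasions for a match. A match is a description of the letters and not of a bound site. The promoters below belong to members on which the results turn, each printed 5′ to 3′ up to the base before the start, with the matches in capitals. In *Isg15* (ENSMUSG00000035692, chr4:156200819-156200968, minus strand) 3 overlapping ISRE-type matches form 1 run, in *Ifit1* (ENSMUSG00000034459, chr19:34640739-34640888, plus strand) there are 2 separate matches, and in *Rsad2* (ENSMUSG00000020641, chr12:26456453-26456602, minus strand), *Cxcl10* (ENSMUSG00000034855, chr5:92348890-92349139, minus strand) and *Gbp2* (ENSMUSG00000028270, chr3:142620513-142620662, plus strand) there is 1. In *Igtp* (ENSMUSG00000078853, chr11:58199406-58199555, plus strand) a GAS-type match stands just ahead of an ISRE-type match, and in *Irf1* (ENSMUSG00000018899, chr11:53769864-53770013, plus strand) only a GAS-type match was found.
Isg15: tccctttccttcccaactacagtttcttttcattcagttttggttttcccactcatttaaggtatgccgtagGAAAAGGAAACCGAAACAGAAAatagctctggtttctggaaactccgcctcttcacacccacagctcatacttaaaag
Ifit1: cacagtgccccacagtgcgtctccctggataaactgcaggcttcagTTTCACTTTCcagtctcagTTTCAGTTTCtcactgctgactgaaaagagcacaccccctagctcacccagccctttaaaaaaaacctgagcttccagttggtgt
Rsad2: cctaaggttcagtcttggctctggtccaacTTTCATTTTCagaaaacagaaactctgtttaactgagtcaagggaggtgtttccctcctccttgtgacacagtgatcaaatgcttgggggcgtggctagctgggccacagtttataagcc
Cxcl10: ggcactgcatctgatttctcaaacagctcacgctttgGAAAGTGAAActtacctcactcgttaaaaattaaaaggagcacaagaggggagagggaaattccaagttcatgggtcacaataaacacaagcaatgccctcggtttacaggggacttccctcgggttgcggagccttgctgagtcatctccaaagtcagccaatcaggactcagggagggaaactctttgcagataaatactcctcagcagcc
Gbp2: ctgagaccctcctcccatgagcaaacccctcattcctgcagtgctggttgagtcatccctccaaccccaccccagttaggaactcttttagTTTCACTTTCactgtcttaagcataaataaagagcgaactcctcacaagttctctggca
Igtp: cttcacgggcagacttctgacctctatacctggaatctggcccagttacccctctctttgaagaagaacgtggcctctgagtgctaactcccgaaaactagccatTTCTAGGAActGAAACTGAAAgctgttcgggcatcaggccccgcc
Irf1: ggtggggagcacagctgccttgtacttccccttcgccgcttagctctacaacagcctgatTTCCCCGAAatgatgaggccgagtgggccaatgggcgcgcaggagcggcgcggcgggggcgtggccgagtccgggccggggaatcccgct

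A further pair is shown because it limits what the counts can say. *Ifit3* (promoter at chr19:34583329-34583528, plus strand) and *Ifit3b* (chr19:34607757-34607956, plus strand) lie near each other. Their transcripts were 98.0% identical over 1697 aligned bases, and the 200 bases before their starts were 99.4% identical over 168 aligned bases. Reads that match both copies cannot be assigned to either with certainty, so the values of each are uncertain.
Ifit3: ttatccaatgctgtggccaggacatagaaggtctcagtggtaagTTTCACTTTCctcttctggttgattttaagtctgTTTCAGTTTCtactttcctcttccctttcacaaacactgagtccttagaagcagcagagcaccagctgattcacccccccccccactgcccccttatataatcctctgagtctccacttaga
Ifit3b: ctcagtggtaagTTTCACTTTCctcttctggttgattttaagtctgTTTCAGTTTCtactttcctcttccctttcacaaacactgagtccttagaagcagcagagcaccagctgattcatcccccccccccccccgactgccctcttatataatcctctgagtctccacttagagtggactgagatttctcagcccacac

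The libraries kept 936 LIP and 883 control cells, with medians of 5595 and 10845 unique molecular identifiers (UMIs, each standing for 1 captured transcript end). Clusters were named from marker genes, with the listed genes kept out of the clustering, and 9 classes held at least 20 cells in each library. The LIP and control libraries held 324 and 53 neutrophil-like cells, 78 and 40 macrophage-like, 79 and 48 vascular endothelial-like, 27 and 51 T-like, 20 and 151 B-like, 45 and 46 mural-like, 62 and 120 osteogenic-like, 103 and 37 Schwann-like and 123 and 263 epithelial-like cells. A level is given as UMIs of the gene per 1000000 UMIs of the class (CPM). The assay reads only transcript ends, so CPM needs no scaling by gene length. A gene was called higher or lower past a 2-fold ratio if it had at least 20 UMIs over both libraries in the class. A sum of 0 was set to 3 UMIs, so that such a ratio rests on this floor and is not an exact bound.

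In the control library, vascular endothelial-like and macrophage-like cells held the highest levels of most listed genes. Of the 44 genes, 21 had their highest control level in vascular endothelial-like cells and 14 in macrophage-like cells. In the LIP library these numbers were 11 and 9, with 9 more in neutrophil-like cells. The share of all genes with their highest level in these classes was not computed. In control macrophage-like cells a single cell was the highest cell for 24 listed genes. Some highest levels were low, such as 5.80 CPM for *Oasl1* in control vascular endothelial-like cells. *Ifitm3*, whose membrane protein blocks virus entry by fusion, was the most abundant with 25117 UMIs over both libraries. Its level in vascular endothelial-like cells was 3562 CPM in the LIP library and 3095 CPM in the control, and its lowest levels were in B-like cells (40.4 and 20.5 CPM) and T-like cells (32.8 and 44.9 CPM). *Ifi27l2a*, a small interferon-induced membrane protein with 4885 UMIs, was highest in macrophage-like cells at 613 CPM in the LIP library and 542 CPM in the control. *Irf1*, with 2098 UMIs, was highest in mural-like cells at 342 CPM in the LIP library and 591 CPM in the control. These 3 genes made up most of the summed counts, so sums are also given over the other 41 genes.

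Other members were unevenly spread over the classes. *Slfn5*, of the Schlafen family, reached 282 CPM in LIP and 345 CPM in control vascular endothelial-like cells and at most 1.01 CPM in epithelial-like cells. *Ifi44*, an interferon-induced protein, had 38 LIP and 22 control UMIs in vascular endothelial-like cells, or 43.8 and 63.7 CPM, and was at 0 in both libraries in neutrophil-like, mural-like, osteogenic-like and Schwann-like cells. *Oas3*, one of the synthetases that make the 2-5A messenger which activates RNase L, was highest in neutrophil-like cells, with 69.1 CPM in the LIP library and 87.7 CPM in the control. *Cxcl10* was not detected in vascular endothelial-like and B-like cells. It had 0 UMIs in 79 LIP and 48 control vascular endothelial-like cells, which at the floor of 3 cells allows a share of up to 3.80% and 6.25% of cells with a UMI, and 0 UMIs in 151 control B-like cells, which allows up to 1.99%. Median depths were 8504 UMIs in the LIP and 5784.5 UMIs in the control vascular endothelial-like cells, and 4764 UMIs in the control B-like cells. Free *Cxcl10* RNA in the droplets was not tested.

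**Figure D1:**
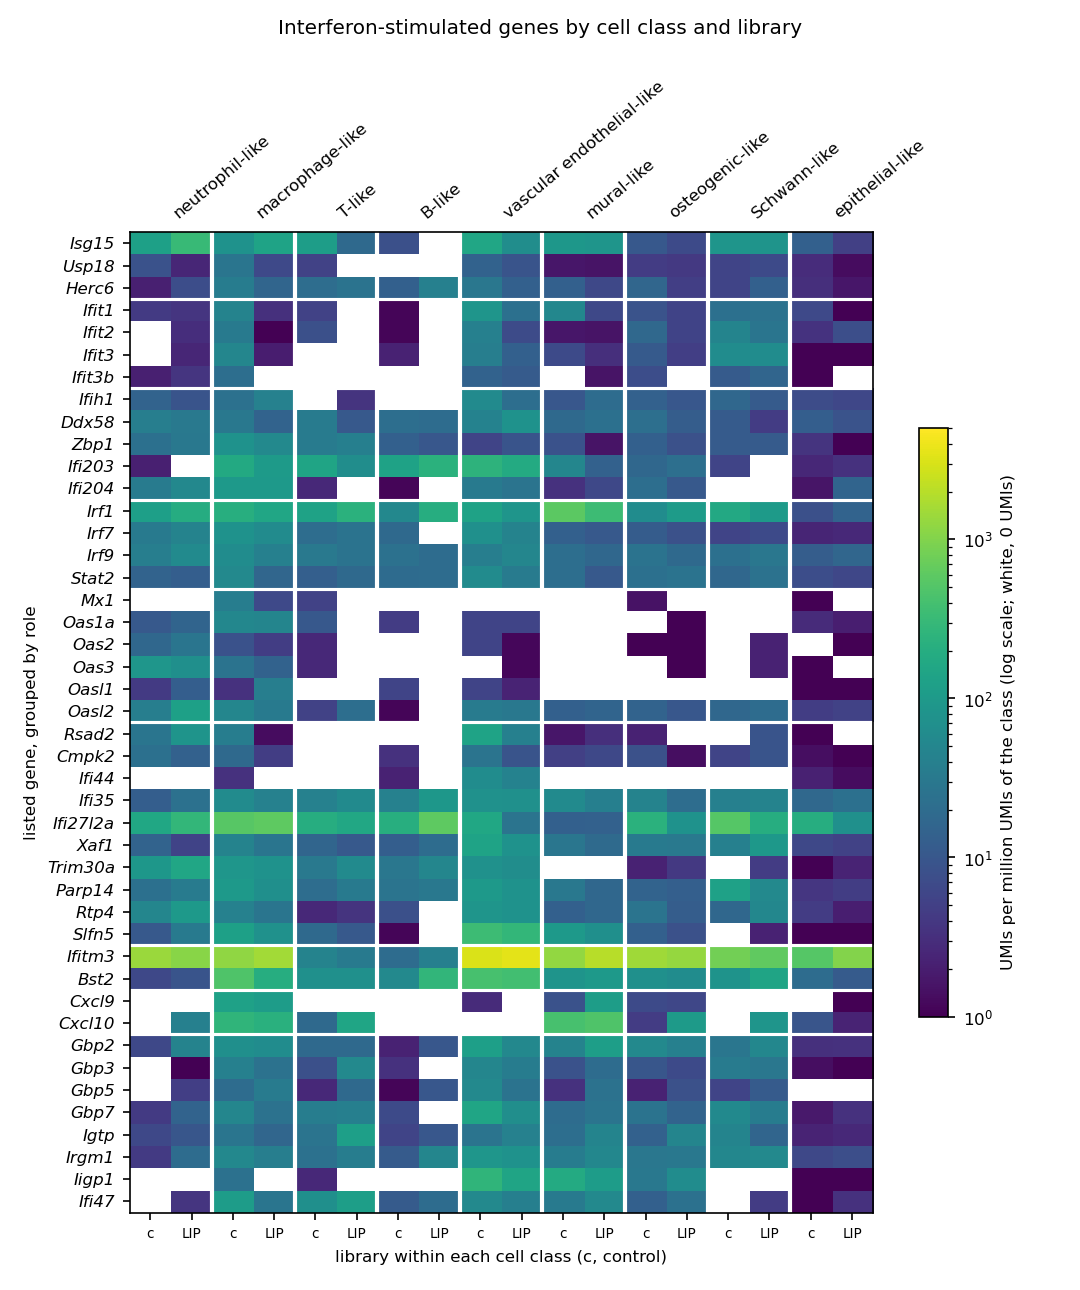
Heat map of the 44 listed genes (rows, grouped by role) in the 9 cell classes, with the control (c) and LIP library side by side in each class, in CPM on a log colour scale, with white for 0 UMIs. *Ifitm3* is the brightest row and reaches 3562 CPM in LIP vascular endothelial-like cells, and *Cxcl9* and *Cxcl10* are white in most or several classes.

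Over all cells kept, the listed genes stood higher in the LIP library. They summed to 28190 UMIs (2669 CPM) there and 22675 UMIs (1691 CPM) in the control, a log2 ratio of 0.66 (0.63 to 0.68), and without the 3 most abundant genes the levels were 1017 and 599 CPM (log2 0.76, 0.72 to 0.81). Of the 44 members, 14 were past 2-fold higher and 2 lower, where 9.36% of all 14705 genes with at least 20 UMIs were higher and 6.58% lower. *Oasl1*, an OAS-like protein that limits translation of *Irf7*, was furthest, with 82 LIP and 16 control UMIs (log2 2.70). *Isg15*, the antiviral ubiquitin-like protein, was at 88.5 CPM in the LIP library and 34.5 CPM in the control (log2 1.36), and *Cxcl10* at 91.4 and 36.5 CPM (log2 1.32). The others past 2-fold higher were *Oas2*, *Gbp5*, *Cxcl9*, *Trim30a*, *Oasl2*, *Ifi204*, *Oas3*, *Igtp*, *Rtp4*, *Oas1a* and *Gbp2*, with log2 ratios from 1.08 to 2.06. *Ifit1*, which binds foreign RNA caps, had 57 LIP and 203 control UMIs (log2 -1.49), and *Mx1*, a nuclear dynamin-like GTPase, had 11 and 31 (log2 -1.15). The remaining 28 members were within 2-fold.

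The mixture of cells differed between the libraries and moved with these totals. Neutrophil-like cells held 15.4% of the LIP and 3.49% of the control UMIs, macrophage-like cells 14.3% and 4.40%, and vascular endothelial-like cells 8.22% and 2.57%, whereas epithelial-like cells, with the lowest sum of the other 41 genes in both libraries, held 28.2% and 55.0%. When each class kept its control level and only the shares of UMIs were set to those of the LIP library, the sum came to 2632 CPM, against 1691 CPM measured in the control and 2669 CPM in the LIP library (log2 of LIP over that value 0.02). Without the 3 most abundant genes the same calculation gave 1120 CPM, above the 1017 CPM measured in the LIP library (log2 -0.14). A single control macrophage-like cell held 441 of the 1688 UMIs of these genes in its class, and the calculation gives that class a larger share. It was not repeated without that cell, so the excess does not show lower levels in the LIP library. The pooled sum alone does not separate more cells of a class from more UMIs per cell. Neutrophil-like cells were 34.6% of LIP and 6.00% of control cells, with median depths of 3857.5 and 6494 UMIs. Macrophage-like cells were 8.33% and 4.53%, with 17366.5 and 13817.5 UMIs. Vascular endothelial-like cells were 8.44% and 5.44%, with 8504 and 5784.5 UMIs. Epithelial-like cells were 13.1% and 29.8%, with 24114 and 28637 UMIs.

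**Figure D2:**
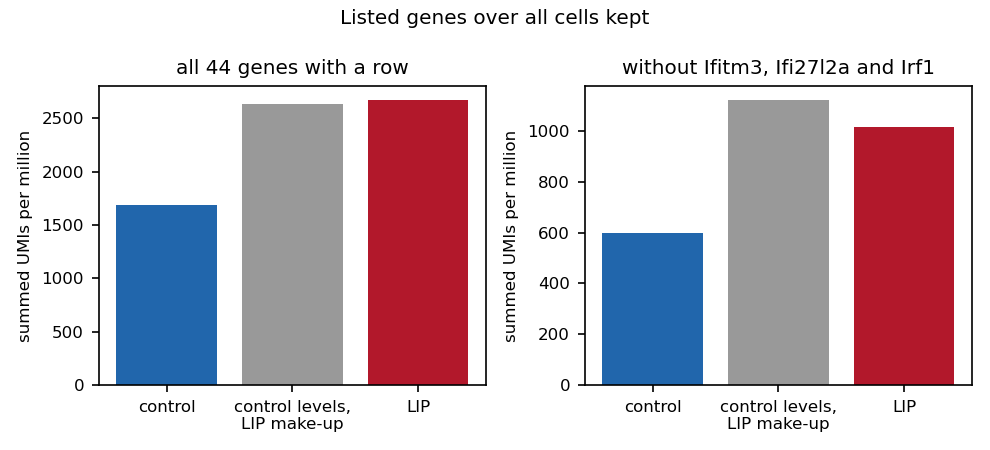
Summed level of the listed genes over all cells kept, in CPM on a linear axis from 0, for the control library (blue), the control class levels combined in the LIP proportions (grey) and the LIP library (red), with all 44 genes on the left and without *Ifitm3*, *Ifi27l2a* and *Irf1* on the right. The grey bar, at 2632 and 1120 CPM, stands near the LIP bar in both panels.

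Within classes the direction differed. The sum of the 44 genes was higher in the LIP library in neutrophil-like cells (2984 against 2430 CPM, log2 0.30, 0.20 to 0.39) and epithelial-like cells (1277 against 911 CPM, log2 0.49, 0.43 to 0.54). It was lower in macrophage-like cells (4117 against 4827 CPM, log2 -0.23, -0.29 to -0.16) and vascular endothelial-like cells (5907 against 6650 CPM, log2 -0.17, -0.24 to -0.10). Without the 3 most abundant genes the neutrophil-like ratio became 0.86 (1421 against 783 CPM), the macrophage-like -0.64 (1837 against 2859 CPM) and the vascular endothelial-like -0.55 (2234 against 3260 CPM). The epithelial-like ratio then became -0.10 (161 against 173 CPM), with an interval of -0.26 to 0.05 that includes 0. In the other classes the ratio of all 44 genes was 0.25 in T-like, 1.17 in B-like, 0.23 in mural-like, -0.18 in osteogenic-like and -0.28 in Schwann-like cells, and without the 3 most abundant it was 0.29, 0.88, 0.12, 0.03 and 0.24. By role, the summed ratio of the GTPases ran from 2.22 (99.9 against 21.4 CPM) in neutrophil-like cells to -0.78 (230.3 against 394.6 CPM) in macrophage-like and -0.74 (484.8 against 808.5 CPM) in vascular endothelial-like cells.

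**Figure D3:**
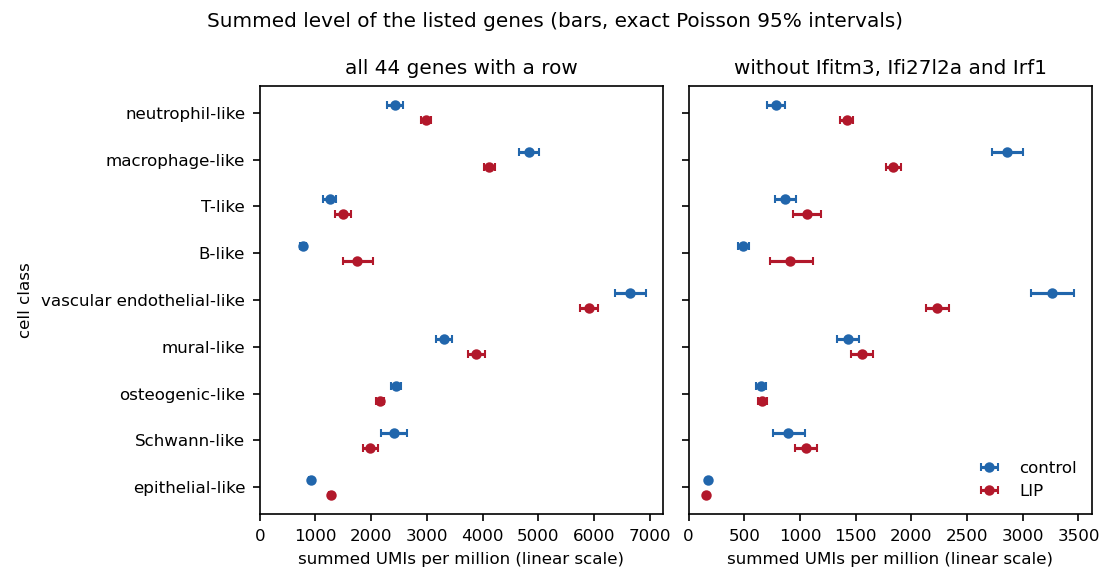
Summed level (CPM) of the listed genes in each cell class (linear axis) for the control (blue) and LIP (red) libraries, over all 44 genes on the left and without the 3 most abundant on the right, with exact Poisson 95% intervals. LIP points lie above control points in neutrophil-like cells and below them in macrophage-like and vascular endothelial-like cells in both panels.

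In neutrophil-like cells 9 of the 27 members with enough UMIs were higher in the LIP library and 0 lower, where 12.1% of all 5142 genes counted in that class were higher and 6.4% lower. With 324 LIP and 53 control cells, several members passed the minimum through LIP counts alone. *Isg15* had 498 UMIs in 121 of 324 LIP cells and 59 UMIs in 17 of 53 control cells, or 307 and 126 CPM (log2 1.28, 0.89 to 1.70). After 1000 UMIs were drawn from each cell, 18.6% of LIP and 18.9% of control cells had an *Isg15* UMI, so the higher level was not accompanied by a larger share of cells. *Rsad2*, which encodes the antiviral enzyme viperin, had 135 and 13 UMIs, or 83.3 and 27.8 CPM (log2 1.58, 0.76 to 2.53), in 46 LIP and 7 control cells. *Oasl2*, another OAS-like protein, had 207 and 18 UMIs, or 128 and 38.5 CPM (log2 1.73, 1.03 to 2.51), in 97 LIP and 15 control cells. *Isg15*, *Rsad2* and *Oasl2* were thus seen in 121, 46 and 97 of the 324 LIP cells, with at most 33, 10 and 7 UMIs in a single LIP cell. Of the 8 rich LIP cells of the class (defined with the single-cell values), 7 had *Isg15* and 7 had *Rsad2*, which are among the genes that define such cells.

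The largest ratios in neutrophil-like cells rested on few control UMIs. *Gbp2*, a guanylate-binding protein that coats microbial vacuoles, had 74 LIP and 3 control UMIs, or 45.6 and 6.42 CPM (log2 2.83, 1.23 to 5.14). *Irgm1*, an immunity-related GTPase, had 33 and 2 UMIs (log2 2.25, 0.28 to 5.36). *Cxcl10* had 67 UMIs in 13 LIP cells, 35 of them in 1 cell, and 0 in 53 control cells. Its log2 ratio was 2.69 with the control set to the floor of 3 UMIs. The exact lower limit, computed with the control count of 0, was 2.35, so the floor ratio is not a lower bound. Without the highest LIP cell the ratio at the floor was 1.62. The interval included 0 for *Gbp7* (24 and 2 UMIs, log2 1.79) and *Oasl1* (21 and 2 UMIs, log2 1.60), and it did not for *Slfn5* (53 and 5 UMIs, log2 1.61, 0.30 to 3.29). The abundant *Ifitm3* was at 1088 CPM in LIP and 1367 CPM in control cells (log2 -0.33), *Ifi27l2a* at 278 and 158 CPM (log2 0.81), *Irf1* at 196 and 122 CPM (log2 0.69) and *Trim30a*, a tripartite motif protein, at 154 and 92.0 CPM (log2 0.74).

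The class held a sub-cluster led by *Acod1*, *Ccl3* and *Hcar2* (287 LIP and 34 control cells) and another led by the granule genes *Ltf*, *Ngp* and *Camp* (37 and 19 cells), so most cells of each library lay in the first but in unequal proportions. Within the *Acod1*-led sub-cluster the sum without the 3 most abundant genes was still higher in the LIP library (log2 0.46, 0.26 to 0.66), *Isg15* was at 466 and 307 CPM (log2 0.60), and *Oasl2* and *Rsad2* had log2 ratios of 1.01 and 1.02. Within the *Ltf*-led sub-cluster the same sum was lower in the LIP library (log2 -0.38, -0.71 to -0.05).

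In macrophage-like cells 11 of 39 members with enough UMIs were lower in the LIP library and 1 higher, where 5.99% of all 7632 genes counted were lower and 9.88% higher. These counts rested on few cells. Without the cell richest in listed genes in each library 4 members were lower and 5 higher, and without all rich cells (defined with the single-cell values) 4 were lower and 4 higher. *Ifit2*, *Ifit3* and *Ifit1*, antiviral proteins that bind RNA or each other, had 1, 3 and 5 LIP UMIs against 20, 29 and 27 in the control, with log2 ratios of -5.68, -4.63 and -3.79. *Rsad2* had 2 and 22 UMIs (log2 -4.81), and *Mx1* had 10 and 22 (log2 -2.49). The 4 IFIT genes together came to 9 UMIs (6.0 CPM) in the LIP and 89 UMIs (151 CPM) in the control library, and 74.2% of the control UMIs were in a single cell. *Bst2*, which encodes tetherin and holds virus particles at the cell surface, did not depend on that cell. It had 301 UMIs in 60 of 78 LIP cells and 284 in 32 of 40 control cells, or 199 and 481 CPM (log2 -1.27, -1.51 to -1.03), and -1.18 when the highest cell of each library was left out.

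The other members past 2-fold lower in macrophage-like cells were the GTPase *Ifi47* (41 and 66 UMIs, log2 -2.04), *Usp18*, the protease that removes ISG15 from proteins (10 and 16 UMIs, log2 -2.03), *Stat2* of the ISGF3 complex (25 and 32 UMIs, log2 -1.71), *Herc6*, the ligase that attaches ISG15 in mice (log2 -1.16), and *Ddx58*, which encodes the RNA sensor RIG-I and lay at the threshold (23 and 18 UMIs). The 1 member higher was *Oasl1*, with 58 LIP UMIs in 11 cells, 25 of them in 1 cell, and 2 control UMIs (log2 3.50, 1.58 to 6.58). *Isg15* was at 138 CPM in LIP and 76.2 CPM in control cells (log2 0.86), with 92 of the 209 LIP and 16 of the 45 control UMIs in 1 cell each. Its ratio was 1.40 (0.84 to 2.02) without the cell richest in listed genes in each library and 2.19 (1.43 to 3.06) without the rich cells. The richest LIP cell held only 11 of the 209 *Isg15* UMIs, whereas the richest control cell held 16 of the 45. The ratio of 1.40 therefore keeps the LIP cell with 92 UMIs but not the highest control cell, which raises it. *Cxcl10* had 341 LIP and 155 control UMIs, or 226 and 262 CPM, and its highest cells held 85 and 116 of them. Without those UMIs the log2 ratio of *Cxcl10* was 1.36. *Ifitm3* was at 1512 and 1218 CPM (log2 0.31), *Ifi27l2a* had a log2 ratio of 0.18 and *Irf1* one of -0.43.

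In vascular endothelial-like cells 11 of 33 members with enough UMIs were lower in the LIP library and 0 higher, where 5.42% of all 7213 genes counted were lower and 8.04% higher. The lower members numbered 4 without the rich cells, 1 after 1000 UMIs were drawn from each cell and 5 with a minimum of 50 UMIs. Each of these settings leaves fewer UMIs or asks for more, so members can drop out for too few UMIs. How many still had enough is not given here, so the smaller counts do not show that ratios came within 2-fold. After the draw the sum of all listed genes had a log2 ratio of -0.29, against -0.17 from all UMIs. *Ifi27l2a* had 23 LIP and 56 control UMIs, or 26.5 and 162 CPM (log2 -2.62, -3.38 to -1.89), and 32 of the control UMIs were in 1 cell. *Rsad2* was at 41.5 and 142 CPM (log2 -1.78, -2.44 to -1.13), with 12 LIP and 13 control cells holding a UMI. *Ifit2*, *Ifit1* and *Ifit3* had log2 ratios of -2.55, -1.87 and -1.45. *Isg15* was at 65.6 and 156 CPM (log2 -1.25, -1.82 to -0.69). *Ifih1*, which encodes the double-stranded RNA sensor MDA5, had 19 and 20 UMIs (log2 -1.41), and the guanylate-binding proteins *Gbp2*, *Gbp7* and *Gbp5* had log2 ratios of -1.17, -1.15 and -1.12. For *Herc6* (12 and 10 UMIs, log2 -1.07) the interval included 0.

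The 5 members with most UMIs in the endothelial-like cells were within 2-fold. *Ifitm3* had a log2 ratio of 0.20 (0.10 to 0.30), *Bst2* was at 375 CPM in LIP and 414 CPM in control cells (log2 -0.14, -0.43 to 0.15), *Slfn5* had a ratio of -0.29 (-0.61 to 0.04) and *Ifi203*, of the PYHIN family, -0.39 (-0.78 to 0.01). *Iigp1*, an immunity-related GTPase, was at 144 and 264 CPM (log2 -0.87, -1.27 to -0.47), and its ratio was -1.14 (-1.56 to -0.71) without the cell richest in listed genes in each library.

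**Figure D4:**
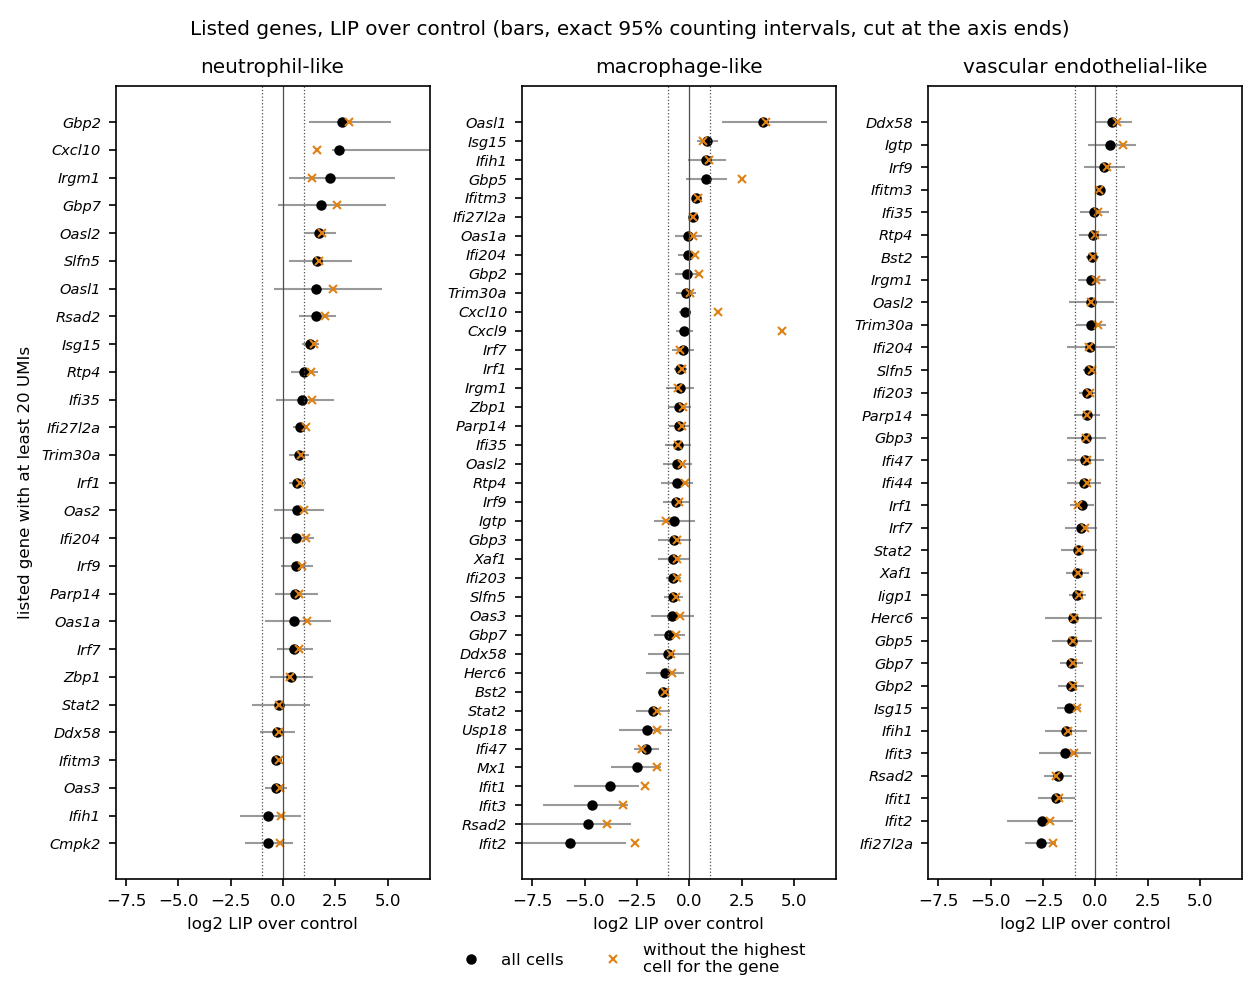
Log2 ratio of LIP over control for each listed gene with at least 20 UMIs in neutrophil-like, macrophage-like and vascular endothelial-like cells (points, all cells; bars, exact 95% counting intervals cut at the axis ends; crosses, after the UMIs of the gene's highest cell were left out in each library; dotted lines, 2-fold). In neutrophil-like cells 9 points lie past the right dotted line and in the other classes 11 points each lie past the left one, and the crosses of the IFIT genes in macrophage-like cells sit nearer to 0 than their points.

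Part of each class sum came from very few cells. A cell was counted as rich when more than 1% of its UMIs, and at least 10 UMIs, came from the listed genes without the 3 most abundant. Neutrophil-like cells had 8 rich cells among 324 in the LIP library, holding 16.6% of the UMIs of these genes in the class. The control had 0 among 53 cells, too few to show that rich cells were absent there. Of the 8 rich LIP cells, 7 had *Isg15* and 7 had *Rsad2*, and 2 had *Cxcl10*. These genes are among those that define a rich cell, so their presence in rich cells follows in part from the definition. Macrophage-like cells had 3 rich LIP cells (24.1%) and 2 rich control cells (38.1%). Vascular endothelial-like cells had 1 rich LIP cell (5.15%) and 4 rich control cells (26.2%), all 4 with *Isg15*. Schwann-like cells had 2 in the LIP library, mural-like cells 1 in each, osteogenic-like cells 1 in the LIP library, and T-like, B-like and epithelial-like cells had 0.

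Rich cells were chosen for high counts of these same genes, so leaving them out lowers the sum without the 3 most abundant by definition. Without the rich cells the log2 ratio of the 44 genes was 0.01 in macrophage-like and in vascular endothelial-like cells, and in the endothelial-like class the levels were 5780 and 5737 CPM. The sum without the 3 most abundant genes was still lower in the LIP library, with 1436 and 1850 CPM in macrophage-like cells (log2 -0.37, -0.47 to -0.26) and 2142 and 2563 CPM in vascular endothelial-like cells (log2 -0.26, -0.38 to -0.14). In the endothelial-like cells *Isg15* came to 64.0 and 67.9 CPM (log2 -0.09), whereas *Ifi27l2a* (log2 -2.67), *Rsad2* (-1.65), *Ifit1* (-1.20) and *Ifih1* (-1.04) were past 2-fold lower without those cells as well. In macrophage-like cells the richest control cell carried 37 of the 41 genes, against a median of 7 per cell, and 441 of the 1688 UMIs of the class (26.1%). It held 22 of 27 *Ifit1* UMIs, 22 of 29 *Ifit3*, 16 of 22 *Rsad2*, 14 of 22 *Mx1* and 116 of 155 *Cxcl10* UMIs, and it had 10 of 17 macrophage markers. The richest LIP macrophage-like cell held 113 of 168 *Cxcl9* and 25 of 58 *Oasl1* UMIs. Some richest cells of other classes carried markers of another class, which Scrublet did not mark as doublets. In the control library the richest Schwann-like cell had 12 of 14 of its own markers and 10 of 21 osteogenic ones, and the richest T-like cell had 1 of 11 T markers.

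Median cells differed less between the libraries than the sums did in macrophage-like and vascular endothelial-like cells. Over single cells the median level without the 3 most abundant genes was 908 CPM in LIP and 705 CPM in control neutrophil-like cells, 1236 and 1150 CPM in macrophage-like cells, and 1858 and 2001 CPM in vascular endothelial-like cells. In osteogenic-like cells it was 290 CPM in the LIP library and 536 CPM in the control, and in Schwann-like cells 228 and 563 CPM, although the class sums there were near or above those of the control.

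**Figure D5:**
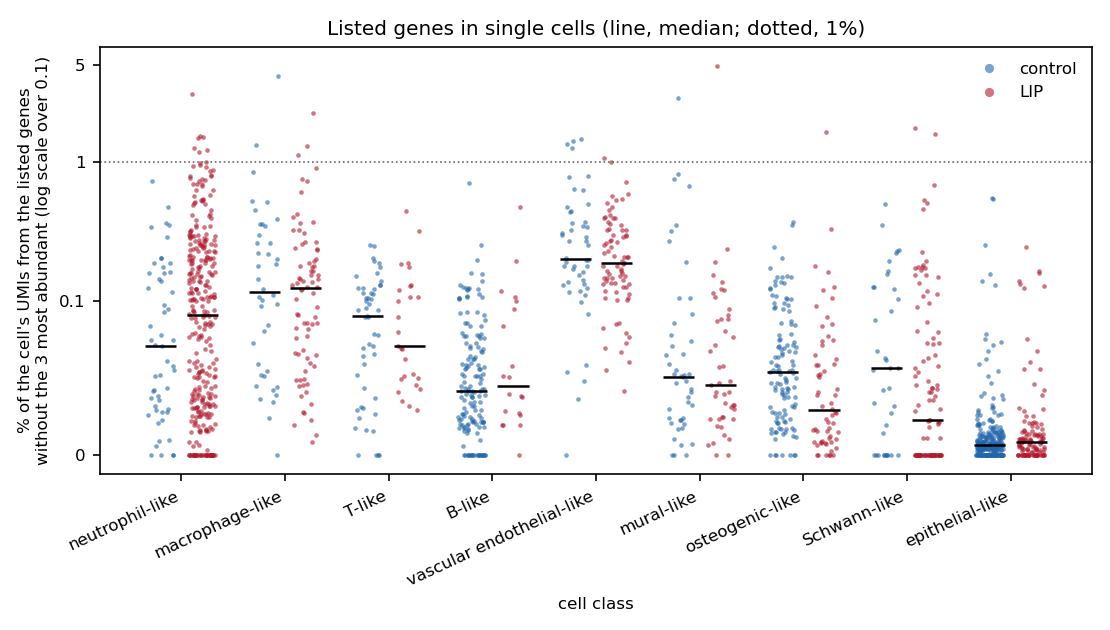
Share of each cell's UMIs that came from the 41 listed genes without the 3 most abundant, in % (log scale over 0.1, linear below), by cell class for the control (blue) and LIP (red) library, with a line at the median and a dotted line at 1%. Macrophage-like and mural-like cells of both libraries each have 1 or more cells far above the rest, and the medians of the libraries lie close together in macrophage-like and vascular endothelial-like cells.

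In the stromal classes a single cell held most of the UMIs of several members. In mural-like cells 3 of 21 members were higher (5.78% of all genes counted were) and 3 lower (4.91% were), or 0 higher and 7 lower without the highest cell for each gene in each library. The higher ones were *Cxcl9* (73 LIP and 5 control UMIs, log2 3.75), *Gbp2* (76 and 27, log2 1.38) and *Igtp* (30 and 13, log2 1.09), and 1 LIP cell held 71, 70 and 23 of those LIP UMIs. That cell had 11 of 13 mural markers and 1 of 17 macrophage markers, and it carried 664 of the 994 UMIs of the 41 genes in its class and library (66.8%), including 300 of 310 *Cxcl10* UMIs. A control cell likewise held 224 of 251 control *Cxcl10* UMIs. Without the highest cell of each library *Gbp2* turned to -2.05 and *Igtp* to -0.48. Lower in the LIP library were *Ifit1* (4 and 30 UMIs, log2 -3.02, 22 of the control UMIs in 1 cell), *Ifi203* (9 and 29, log2 -1.80) and *Stat2* (7 and 13, log2 -1.01). *Irf1* was at 342 CPM in the LIP library and 591 CPM in the control (log2 -0.79, -1.04 to -0.54), which did not rest on 1 cell (-0.89 without the highest), and *Ifitm3* was higher (log2 0.64, 0.50 to 0.77). The sum without the 3 most abundant genes had opposite ratios in the *Myh11*-led sub-cluster of smooth muscle genes (27 LIP and 28 control cells, log2 2.58) and the *Rgs5*-led one (18 and 18 cells, log2 -2.40). In the whole class the richest LIP cell held 664 of 994 UMIs of this sum and the richest control cell 299 of 846. The sub-cluster ratios can therefore turn on where these single cells fell, and the contrast was not tested.

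In osteogenic-like cells 3 of 31 members were higher (5.2% of all genes counted were) and 6 lower (8.09% were), or 1 higher and 9 lower without the highest cells. *Cxcl10* had 154 UMIs in 6 LIP cells and 6 UMIs in 4 control cells, or 105 and 4.48 CPM (log2 4.55, 3.40 to 6.02), and 4.06 without the highest cell of each library. The higher ratios of *Igtp* (71 and 19 UMIs, log2 1.77) and *Iigp1* (93 and 40 UMIs, log2 1.09) came from 1 LIP cell with 61 and 85 of the UMIs, and they turned to -0.89 and -1.65 without the highest cells. *Ifi27l2a* was at 77.1 and 231 CPM (log2 -1.58, -1.91 to -1.27). The median gene of this class had a log2 ratio of -0.13. The sub-clusters of the class were unevenly filled, with 21 LIP and 80 control cells led by *Clec3b* and 41 and 40 cells led by *Ibsp*. The marker list of the class held fibroblast genes such as *Dpt* and *Mfap4* beside bone genes such as *Ibsp*. The *Clec3b*-led cells had *Dpt* and *Mfap4* but no bone gene among their 10 leading genes. The class name therefore does not show these cells, most of the control cells, to be bone cells. *Ifi27l2a* had 3 LIP and 121 control UMIs in the *Ibsp*-led cells (log2 -6.65) and 110 and 189 UMIs in the *Clec3b*-led cells (log2 0.25). *Herc6*, *Ifit2*, *Ifit3*, *Ifi35* and *Rtp4* were the other members past 2-fold lower, with log2 ratios from -1.09 to -1.78, and *Irf1* had a ratio of 0.76 (0.37 to 1.15).

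In Schwann-like cells, the glia of peripheral nerves, 3 of 15 members were higher (6.18% of all genes counted were) and 2 lower (7.19% were). Most control cells and a smaller share of the LIP cells lay in the *Scn7a*-led sub-cluster (28 LIP and 20 control cells). *Cxcl10* had 38 UMIs in 6 LIP cells and 0 in 37 control cells. Its log2 ratio was 2.32 with the control set to the floor of 3 UMIs. The exact lower limit, computed with the control count of 0, was 1.95, so the floor ratio is not a lower bound. Without the highest LIP cell the ratio at the floor was 1.72. The 0 of 37 control cells allow a share of up to 8.11% at the floor of 3 cells. *Xaf1*, an antagonist of the apoptosis inhibitor XIAP, had 41 and 7 UMIs (log2 1.21, 0.04 to 2.61), and *Rtp4*, a zinc-finger protein, 23 and 3 (log2 1.60, -0.13 to 3.98). *Ifi27l2a* was at 202 and 523 CPM (log2 -1.37), and *Parp14*, a mono-ADP-ribosyltransferase, at 54.5 and 132 CPM (log2 -1.28). The 4 IFIT genes had 131.6 CPM in the LIP and 143.6 CPM in the control library, so *Ifit3*, with 63.5 and 63.2 CPM, had its highest level of any class here.

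The higher 44-gene sum of LIP epithelial-like cells came with *Ifitm3*, which had 3062 LIP and 3880 control UMIs, or 1029 and 526 CPM (log2 0.97, 0.90 to 1.04), and it was higher in the LIP library in all 4 sub-clusters, with log2 ratios of 0.75 to 1.75. The largest sub-cluster was the *Krt4*-led one in the LIP library (47 LIP and 68 control cells) and the *Pappa*-led one in the control (38 and 81). After 1000 UMIs were drawn from each cell, 57.5% of LIP and 37.0% of control epithelial-like cells had an *Ifitm3* UMI. In T-like cells, which had the gene at 32.8 and 44.9 CPM, the same shares were 3.70% and 3.92%. Of 29 members, 2 were higher (5.71% of all genes counted were) and 7 lower (3.09% were). *Ifi204*, a DNA-binding PYHIN protein, had 46 UMIs in 10 LIP cells and 12 UMIs in 4 control cells (log2 3.25, 2.31 to 4.3), 43 and 10 of them in the sub-cluster led by *Krt4* and *Dynap*. *Ifit2* had 23 and 26 UMIs (log2 1.13, 0.26 to 2.0). *Ifi27l2a* was at 72.2 and 204 CPM (log2 -1.5, -1.71 to -1.29).

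The other members lower in epithelial-like cells were low in both libraries. *Ifit1* had 1 LIP and 49 control UMIs (log2 -4.31), 44 of them in 1 control cell, *Isg15* had 15 and 102 (log2 -1.46), 63 of them in 1 control cell, and *Cxcl10* had 7 and 69 (log2 -1.99), 38 of them in 1 control cell. *Zbp1*, a sensor of Z-form nucleic acid, had 1 and 27 UMIs (log2 -3.45). *Isg15* came to -0.39 and *Zbp1* to -0.91 without the highest cell of each library. *Rtp4* and *Usp18* had log2 ratios of -1.19 and -1.15, both with intervals that included 0. The richest control epithelial-like cell carried 30 of the 41 genes and 13 of 16 epithelial markers. The richest LIP cell of the class had 4 of 16 epithelial and all 14 of 14 vascular endothelial markers and was the highest cell for 8 listed genes, with 9 of the 34 *Bst2*, 7 of the 10 *Gbp7* and 5 of the 10 *Ifi203* UMIs of the class.

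In T-like cells 2 of 13 members were higher (10.4% of all genes counted were) and 2 lower (8.19% were). *Isg15* had 5 UMIs in 5 LIP cells and 43 UMIs in 18 control cells, or 18.2 and 114 CPM (log2 -2.64, -4.34 to -1.31), and *Ifi203* was at 65.6 and 143 CPM (log2 -1.12). *Cxcl10* had 41 and 7 UMIs (log2 3.01) in 4 LIP and 6 control cells. *Igtp* had 34 and 10 UMIs (log2 2.23, 1.18 to 3.41), and the LIP cell with most of them, 11 UMIs, carried 8 of 11 T markers and 8 of 14 vascular endothelial markers. Without the highest cell of each library *Igtp* came to 1.99. *Irf1* was at 229 and 135 CPM (log2 0.77).

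B-like cells were not the same population in the libraries, since 148 of the 151 control cells lay in a sub-cluster with 0 LIP cells and all 20 LIP cells in one led by *Vpreb3*, a gene of B cell precursors, and the median gene had a log2 ratio of 0.15. There 4 of 10 members were higher (12% of all genes counted were) and 0 lower (11.5% were). *Irf1* had 20 LIP and 47 control UMIs, or 202 and 53.6 CPM (log2 1.91), *Ifi27l2a* was at 596 and 211 CPM (log2 1.5), and *Ifi35* had 9 and 37 UMIs (log2 1.11, -0.13 to 2.18). All 27 LIP UMIs of *Bst2* were in 1 cell that had 1 of 10 B markers and 3 of 17 macrophage markers, and the log2 ratio of 2.32 became -0.40 without the highest cells.

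By role, the calls over the 9 classes were divided as follows. Of the 44 members, 33 were past 2-fold in at least 1 class. Of these, 10 were only higher in the LIP library, 13 only lower, and 10 higher in one class and lower in another. The share of all genes past 2-fold in at least 1 of the 9 classes was not computed, so these counts describe the list only. *Ifit3b* had too few UMIs in every class. *Irf7*, *Irf9*, *Oas1a*, *Oas2*, *Oas3*, *Cmpk2*, *Ifi44*, *Trim30a*, *Ifitm3* and *Gbp3* were within 2-fold in every class where they could be compared. Among ISG15 and its enzymes, *Isg15* was higher in neutrophil-like cells and lower in 3 classes, and *Usp18* and *Herc6* were only lower, in 2 and 3 classes. Among the IFIT genes, *Ifit1* was lower in 4 of 5 classes, *Ifit3* in 3 of 4 and *Ifit2* in 3 of 5 with 1 higher. Several of these calls leaned on 1 cell. For *Ifit1*, 1 control cell held 22 of 27 macrophage-like UMIs and another held 44 of 49 epithelial-like UMIs. Among the effectors *Oasl1* was higher in both classes where it passed, on few control UMIs in each. Of its macrophage-like LIP UMIs, 25 of 58 were in 1 cell. *Mx1* was lower in the 1 class where it passed, with 14 of 22 control UMIs in 1 cell. Of the chemokines, *Cxcl10* was higher in 4 of 7 classes and lower in 1. Of the GTPases, *Igtp* was higher in 3 of 6 classes and *Gbp2* in 2 of 7 with 1 lower. A single LIP cell held 61 of 71 osteogenic-like *Igtp* UMIs. Another held 23 of 30 mural-like *Igtp* and 70 of 76 mural-like *Gbp2* UMIs.

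The genes upstream of the list were read from a second list of 90 genes, 89 of them with a row, for interferons, receptors, signalling proteins and further targets. Of 13 type I and type III interferon genes, only *Ifnk* (1 LIP UMI) and *Ifnz* (1 UMI in each library) were detected. *Ifng*, the gene for IFN-γ, had 29 LIP UMIs in 2 T-like cells, 25 of them in 1 cell, and 33 control UMIs in 9 T-like cells (log2 0.28, -0.50 to 1.04), and its ratio was -2.0 without the highest cell of each library. Of the type I receptor subunits, *Ifnar2* had a log2 ratio of 0.99 in neutrophil-like and 1.17 in mural-like cells. Of the IFN-γ receptor subunits, *Ifngr1* had a ratio of -1.02 in osteogenic-like cells and *Ifngr2* one of -1.81 in T-like cells. The type III receptor subunit *Ifnlr1* had a ratio of -1.46 in neutrophil-like cells, and its partner *Il10rb* one of -1.36 in vascular endothelial-like cells. Receptor subunits were also past 2-fold higher in B-like cells (2 of 5, or 0 without the highest cells) and Schwann-like cells (1 of 4). All other receptor ratios with enough UMIs were within 2-fold.

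Of the upstream genes and further targets, 5 of the 45 with enough UMIs were higher and 5 lower in neutrophil-like cells (12.1% and 6.4% of all genes counted were), 4 and 8 of 65 in macrophage-like cells (9.88% and 5.99%), and 0 and 4 of 48 in vascular endothelial-like cells (8.04% and 5.42%). Without the highest cell for each gene these counts were 9 and 1, 4 and 8, and 0 and 2. In neutrophil-like cells *Ifitm1*, a relative of *Ifitm3*, had 4088 LIP and 325 control UMIs (log2 1.86), the exonuclease *Isg20* a ratio of 1.86 and the peptide transporter subunit *Tap1* one of 1.14. Of the 14 antigen processing genes with enough UMIs in these cells, 1 was higher and 4 lower, or 1 and 0 without the highest cells. In macrophage-like cells *Ifitm1* had 857 LIP and 9 control UMIs (log2 5.22), against a log2 ratio of 0.31 for *Ifitm3*. The class II antigen presentation genes *Cd74*, *H2-Aa*, *H2-Ab1* and *H2-Eb1*, targets of IFN-γ through CIITA, were lower in LIP macrophage-like cells, with log2 ratios of -1.27, -1.25, -1.13 and -1.25.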

How the data were processed

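Cells of periodontal tissue from 5 LIP and 5 control mice, pooled by group, were read as 10x 3′ libraries (mm10, Cell Ranger 3.1.0 by the matrix header and 3.0 by the methods). The deposited counts of the authors are raw UMIs per gene and barcode, filtered for cells but not otherwise changed. Barcodes with 200 to 7500 genes, at most 60000 UMIs and at most 10% mitochondrial UMIs were kept (1819 cells, 10560109 LIP and 13407122 control UMIs). The libraries shared 2 barcodes, 1 among kept cells.

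Clustering used Seurat 5.3.0 in R 4.3.3 (integration of the libraries, 2000 variable genes without the listed ones, 30 dimensions, resolution 0.1, sub-clusters at 0.2). A class was named "-like" from its markers (in at least 25% of cells, over 2-fold with 10 CPM added, at least 3 in all). A low-depth cluster of 50 LIP and 27 control cells stayed unnamed, and 1 cycling epithelial-like sub-cluster had 0 markers among its 10 leading genes. Scrublet (scanpy 1.11.5) marked 1 LIP and 4 control cells as doublets, too few to rely on in so small libraries, and they were kept. The other steps used Python 3.11.15 with scipy 1.17.1.

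Levels have exact Poisson intervals, shares exact Clopper-Pearson limits and ratios exact conditional intervals, all at 95% and for counting error only. A count of 0 was given the limit of 3 counts in shares and ratios, in place of an exact limit. There was no test. To compare shares at equal depth, 1000 UMIs were drawn per cell, which left out 89 cells under that depth. For the value without the highest cell, the UMIs of that gene in its highest cell of each library were removed and the totals kept. The interval code was tested on simulated counts. Named with values were the listed genes past 2-fold (at most 5 each way per class, and the others where a list was completed, chosen after their values were seen) and the 5 with most UMIs per class. The members and lists were chosen with earlier results of these data known. Alternatives changed clustering, filters, doublets, depth, scaling, minimum UMIs and the cells included. Some genes of the pathway list and markers are not reported here.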

Additional observations from a re-analysis of the deposited data

Results flagged for a closer look

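In 7 listed genes the LIP over control ratio was past 2-fold higher in 1 class and past 2-fold lower in another, with both counting intervals clear of 0. With 1 library per condition these differences between classes were not tested. The share of all genes with such opposite ratios was not computed. *Rsad2* differed by 6.40 on the log2 scale between neutrophil-like (1.58) and macrophage-like cells (-4.81), and without the highest cell for the gene in each library the ratios were 2.0 and -3.94. The macrophage-like values rested on few UMIs, with 22 in the control library, 16 of them in 1 cell, and fewer in the LIP library. *Isg15* differed by 3.92 between neutrophil-like (1.28) and T-like cells (-2.64), or 1.48 and -2.49 without the highest cells. The neutrophil-like sub-clusters were unevenly filled, with 287 LIP and 34 control cells led by *Acod1* and 37 and 19 led by *Ltf*. Within the *Acod1*-led cells the ratios of *Isg15* and *Rsad2* were smaller than in the whole class, and *Isg15* was within 2-fold. *Gbp2* differed by 4.0 between neutrophil-like (2.83) and vascular endothelial-like cells (-1.17), or 3.16 and -1.08. Few control UMIs lay behind its neutrophil-like values. *Cxcl10* differed by 6.55 between osteogenic-like (4.55) and epithelial-like cells (-1.99), or 4.06 and -1.32. *Ifi27l2a* differed by 4.11 between B-like (1.5) and vascular endothelial-like cells (-2.62), or 1.29 and -2.01, and the B-like cells of the libraries lay mostly in different sub-clusters. *Ifit2* differed by 6.81 between epithelial-like (1.13) and macrophage-like cells (-5.68), on 1 LIP UMI in the latter, or 1.11 and -2.58 without the highest cells, and *Bst2* by 3.59 between B-like (2.32) and macrophage-like cells (-1.27), where the B-like value rested on 1 cell and was -0.40 without the highest cells.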

How the results depend on the processing

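Class sums (log2 LIP over control) and counts of members past 2-fold were recomputed in 202 combinations of result and alternative, of which 136 stayed close to the reported value, 62 moved and 4 reversed. No paired analysis was possible because each condition was 1 library. The macrophage-like, vascular endothelial-like and osteogenic-like sums crossed 0 in at least 1 alternative, as did the epithelial-like sum, and the neutrophil-like sum kept its direction in every alternative run. Leaving out the 3 most abundant genes reversed the epithelial-like sum to -0.10 and the osteogenic-like sum to 0.025, and gave 0.86 in neutrophil-like, -0.64 in macrophage-like, -0.55 in vascular endothelial-like and 0.76 in all cells. Leaving out cells with over 1% of their UMIs from listed genes, chosen after seeing the data, reversed the macrophage-like and vascular endothelial-like sums to 0.012 and 0.011. It also gave 0.17 in neutrophil-like, -0.38 in osteogenic-like and 0.61 in all cells, with 4 members higher and 4 lower in macrophage-like, 4 lower in vascular endothelial-like, and 1 higher and 10 lower in osteogenic-like cells. Leaving out the richest cell of each class and library, also added later, gave -0.027 with 5 higher and 4 lower in macrophage-like cells, -0.35 with 1 higher in osteogenic-like cells and 4 lower in epithelial-like cells.

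Drawing 1000 UMIs per cell gave 4 higher in neutrophil-like cells, -0.32 with 0 higher and 3 lower in macrophage-like, 0.61 with 0 higher and 1 lower in epithelial-like, -0.29 with 1 lower in vascular endothelial-like, -0.28 with 0 higher and 1 lower in osteogenic-like, and 0.60 in all cells. The mean over cells gave 1 lower in neutrophil-like cells, -0.13 with 2 higher in macrophage-like, 0.66 with 6 higher in epithelial-like, 1 higher in vascular endothelial-like, 5 higher in osteogenic-like and 0.62 in all cells. With 15 dimensions the neutrophil-like sum was 0.43 and the epithelial-like 0.63, with 7 higher and 3 lower. Macrophage-like sums were -0.011 with 3 higher at resolution 0.05, -0.0087 with 3 higher with the listed genes allowed in the clustering, and -0.0038 with 3 higher without doublets, where the class held 98, 83 and 92 LIP and 66, 63 and 68 control cells in place of 78 and 40. A 5% mitochondrial limit gave -0.16 in macrophage-like, 0.67 with 4 higher in epithelial-like and -0.36 in osteogenic-like cells. With no minimum of UMIs 4 members were lower in neutrophil-like and 4 higher in epithelial-like cells. With a minimum of 50, 3 were lower in macrophage-like, 5 in vascular endothelial-like and 3 in osteogenic-like cells, and 1 was higher and 4 lower in epithelial-like cells. Median size factors gave -0.055 in osteogenic-like and 0.74 in all cells. Drawing 1000 UMIs per cell or asking for a minimum of 50 can leave fewer members with enough UMIs. How many were left is not given here, so smaller counts there do not show that ratios came within 2-fold. The cause of the moves under all these alternatives was not tested.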
